A study of Mus musculus with 9 samples.

Results

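RNA sequencing of mouse natural killer (NK) cells was read for 9 genes of the tumour necrosis factor (TNF) receptor superfamily and its ligands. They are the 7 receptor genes Tnfrsf1a, Tnfrsf1b, Tnfrsf4, Tnfrsf9, Tnfrsf14, Tnfrsf18 and Tnfrsf26 and the ligand genes Tnfsf14 and Cd70. The genes were chosen by name, and all 9 were found by Entrez identifier among the 27179 genes of each count file. The libraries came from spleen NK cells of C57BL/6 mice. Id2-null cells, which lack the helix-loop-helix protein ID2, and wild-type (WT) cells gave 3 libraries each after growth in interleukin-15 (IL-15) for 7 days. Sorted wild-type cells named Immature, M1 and M2 gave 1 library each, with no culture. The labels assign the culture step by sample number only, and the numbers were read in listed order. The sources used here do not give how Id2 was deleted, the animals' age and number, or the markers of the sorts. Since the replicates are not said to be separate animals or cultures, p-values here reflect library-to-library spread only, and that spread may be technical.

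TNF receptors are membrane proteins that cluster when bound by ligands of the TNF family, which assemble as trimers. Some, such as TNFR1, carry a death domain and can start cell death or inflammation, while others recruit TRAF adaptors that activate the transcription factor NF-kB and act as costimulatory receptors. NK cells are known to use several of them, among them 4-1BB, OX40 and GITR, whose levels are known to follow activation, and they make TNF family ligands themselves.

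Of the 9 genes, Tnfrsf26 was the only one called between the genotypes, at 2.08-fold the WT level in Id2-null cultures. Over all genes tested 3.42% were called, and the Tnfrsf26 call was lost without WT replicate 1 (edgeR adjusted p = 0.0589). The cultures also differed in Xist and Y-linked transcripts, so sex and genotype cannot be told apart. No described gene was called lower. Tnfrsf9, which encodes 4-1BB, was the most abundant of the 9 genes per gene length in both sets of cultures and stood in the WT cultures at 8.46-fold its mean level in the sorted cells. Tnfsf14, which encodes the ligand LIGHT, was lower in the WT cultures than in every sorted library. By a rule of no overlap and over 2-fold, 16.2% of all genes were higher in WT cultures and 15.4% lower. Tnfrsf26 and Tnfsf14 were over 2-fold lower in M2 than in Immature cells, though for Tnfsf14 the interval for counting error spanned 2-fold. Of all genes with enough counts, 5.67% were over 2-fold lower in M2. Cd70 was at or near 0 in every library.

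Library totals ran from 4128414 to 4831831 counts, and by a limit of 3 counts a gene with none could still stand at 0.62 to 0.73 in CPM of the raw total. Levels below are CPM, the counts scaled to a common library size, after TMM scaling over the 9 libraries. Floors, and intervals of the sorted libraries and their ratios, cover counting error only. Intervals of log2 fold changes come from the edgeR fit and also hold the spread between libraries. Replicates 1 to 3 of WT had Id2 levels of 407.7, 400.4 and 374.4 CPM, and those of Id2-null had 12.3, 23.9 and 8.98 CPM. All 9 NK marker genes had counts in every library. Xist, expressed in female cells, stood at 657.4 to 874.8 CPM in Id2-null and 0.208 to 1.15 CPM in WT cultures, while Y-linked Ddx3y stood at 0.22 to 0.634 and 71.8 to 78.5 CPM. The sex of the cells and the genotype therefore cannot be told apart in any comparison of the cultures. The 3 sorted libraries held transcripts of both genes, with Xist at 90.5 to 127.1 and Ddx3y at 37.1 to 46.3 CPM. Replicate 3 of each genotype stood apart from replicates 1 and 2. The log2 CPM of Id2-null replicate 3 correlated at 0.93 and 0.933 with the other replicates, which correlated at 0.986 with each other. Over all genes, 377 of 11022 (3.42%) were called at an adjusted p under 0.05, 1.91% higher and 1.52% lower in Id2-null cultures (edgeR quasi-likelihood test, Benjamini-Hochberg adjustment). Of the 9 genes described here 8 passed the expression filter, all but Cd70, and 1 of these 8 was called. With the replicate block 1 was called too, Tnfrsf26, and 0 were called lower, where 7.58% of all genes were called and 3.47% were lower. With 8 genes these counts cannot be set apart from the background shares.

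Among the 9 NK markers edgeR called 0 between the genotypes, and the lowest adjusted p was that of Tbx21 (0.0566). Prf1 (log2 fold change -1.43, edgeR adjusted p = 0.00563) and Tbx21 (-0.60, edgeR adjusted p = 0.0071) were called lower once the replicate block was used. Their part in the differences below was not tested. Markers of other cell types were read beside the genotypes. The 6 B cell markers summed to 691 to 1047 CPM in Id2-null and 118 to 168 CPM in WT cultures, nearly all of it Ighm, the immunoglobulin heavy chain gene, which was called higher (log2 fold change 2.73, edgeR adjusted p = 0.000422). The B cell genes Ms4a1 and Pax5 were at 0 in all 6 cultures. The 10 T cell markers summed to 534 to 965 CPM in Id2-null and 433 to 631 CPM in WT cultures, ranges that overlap, and 0 of them were called by edgeR, with 2 at an unadjusted p under 0.05 (14.6% of all genes). With the replicate block the T cell receptor complex genes Cd3d and Cd3e were called, the first higher (edgeR adjusted p = 0.00142) and the second lower (edgeR adjusted p = 0.0159). The 8 myeloid markers summed to 439 to 513 CPM in Id2-null and 363 to 593 CPM in WT cultures, with 4 to 5 of them at 0. Nearly all of this sum was Itgax, which NK cells also express and whose mean was 454 (WT) and 463 CPM (Id2-null). Lyz2, S100a8, S100a9 and Adgre1 had no counts in any culture. The part of these cells in the differences below was not tested, and in a bulk library fewer cells of a type and less RNA per cell cannot be told apart.

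**Figure D1:**
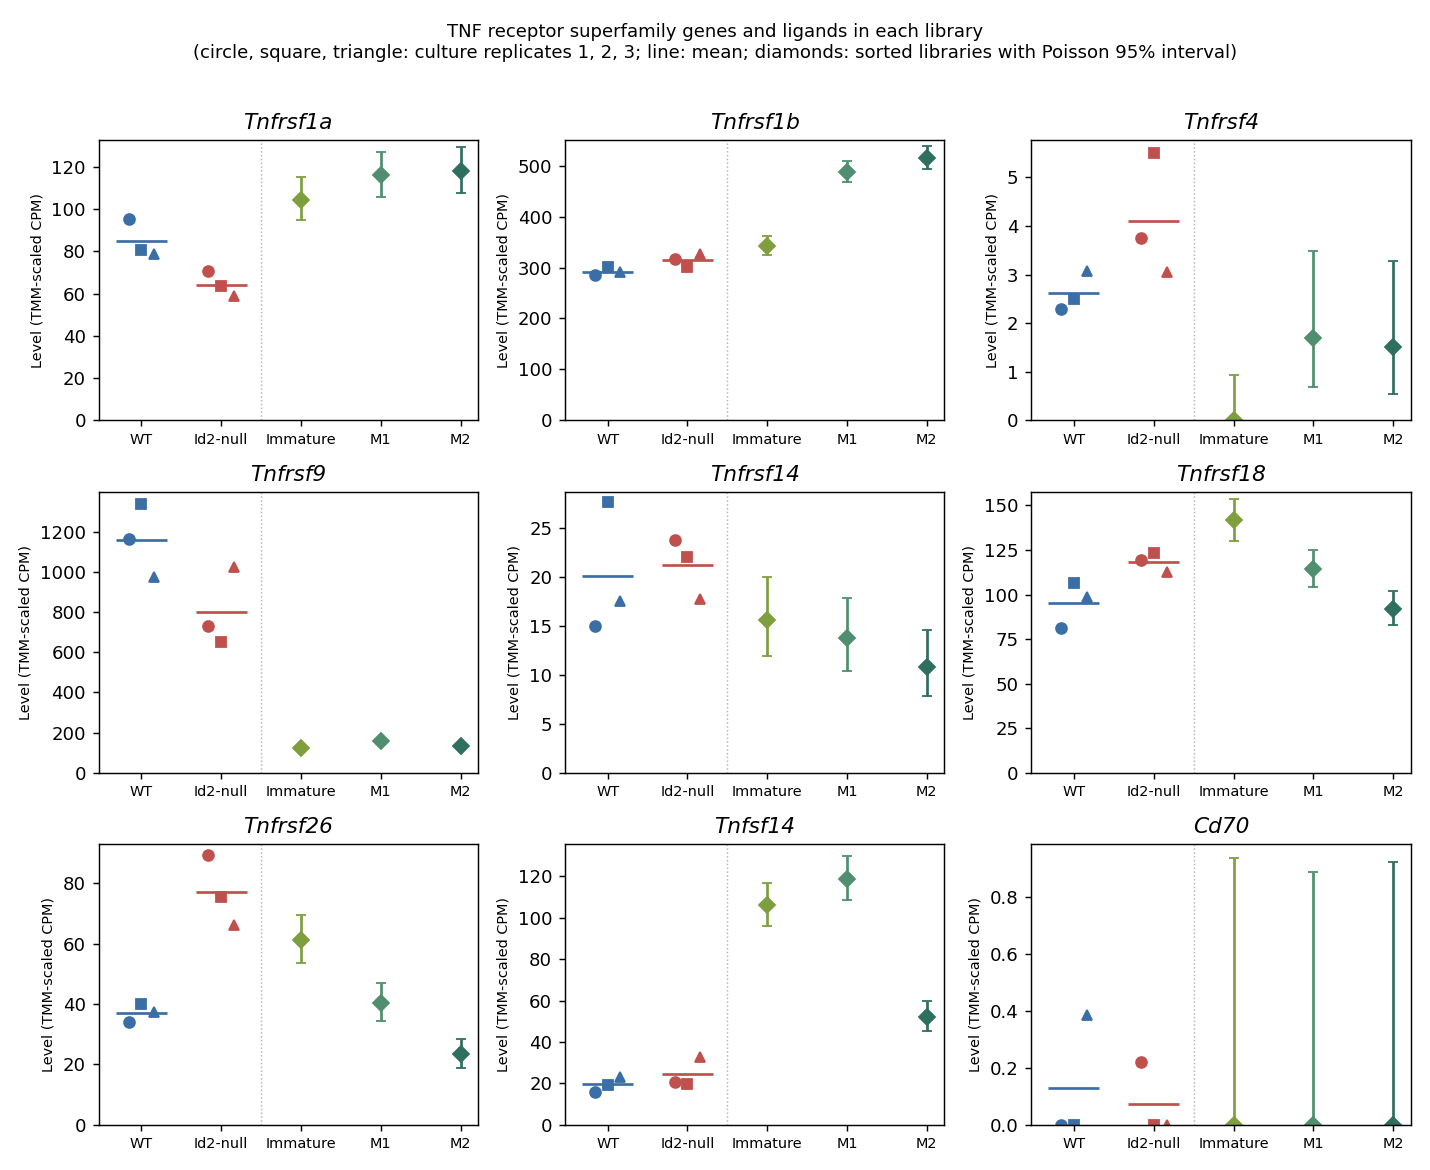
Level of each of the 9 genes (y axis, TMM-scaled CPM, from 0) in WT and Id2-null cultures and in the sorted Immature, M1 and M2 libraries (x axis). Circles, squares and triangles are culture replicates 1 to 3, lines are means of 3, and diamonds are single libraries with a Poisson 95% interval. The 3 Id2-null values of Tnfrsf26 lie above all WT values, and Tnfrsf9 lies far above its sorted levels in every culture.

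The 2 receptors for TNF itself were measured first. Tnfrsf1a encodes TNFR1, the death domain receptor found on most cells, and lies on chromosome 6 at positions 125349723 to 125362483 (GRCm38). Its level was 95.4, 80.7 and 78.7 CPM in WT replicates 1 to 3 and 70.5, 63.4 and 58.8 CPM in Id2-null replicates 1 to 3. All 3 Id2-null values lay below all 3 WT values, which was so in 1 direction or the other for 20.4% of all genes tested. The means were 84.9 ± 9.10 and 64.2 ± 5.88 CPM (SD, n = 3 each). The log2 fold change was -0.40 (SE 0.13, 95% interval -0.69 to -0.10), and the adjusted p of 0.179 from edgeR did not pass, nor did that with the replicate number as a block (adjusted p = 0.0562). Tnfrsf1b encodes TNFR2, which has no death domain and signals through TRAF proteins, and lies on chromosome 4 at positions 145212368 to 145246870. Its level was 284.7, 300.8 and 291.0 CPM in WT and 317.1, 300.2 and 327.4 CPM in Id2-null cultures. The genotypes overlapped, with a log2 fold change of 0.11 (95% interval -0.13 to 0.35, edgeR adjusted p = 0.709). Of all 8 tested genes Tnfrsf1b had the narrowest interval.

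Tnfrsf9 encodes 4-1BB (CD137), a costimulatory receptor induced on activated T and NK cells. It lies on chromosome 4 at positions 150920155 to 150946104, within the span of the gene Camta1 on the other strand, and no 50-base stretch of its transcripts occurs in another gene's. WT replicates 1 to 3 stood at 1164.3, 1337.7 and 972.9 CPM, and Id2-null replicates 1 to 3 at 731.3, 649.3 and 1023.1 CPM. Id2-null replicates 1 and 2 were below every WT culture, and replicate 3 was above WT replicate 3. The means were 1158 ± 182 and 801 ± 196 CPM (SD, n = 3 each). The difference of -0.53 on the log2 scale (SE 0.20, 95% interval -0.97 to -0.08) did not pass (edgeR adjusted p = 0.251). The call turned on 1 library. Without Id2-null replicate 3 the gene was called lower at a log2 fold change of -0.75 (edgeR adjusted p = 0.0103, with 5.90% of genes called), and without both cultures numbered 3 at -0.86 (edgeR adjusted p = 3.57e-05, with 9.62% called). As these same counts set replicate 3 apart, the p-values of both fits are not independent of that choice. With the replicate block Tnfrsf9 did not pass (edgeR adjusted p = 0.268).

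Tnfrsf9 has 2 start sites in the RefSeq promoter table (GRCm38.p6). Both promoters are printed because, of the described genes, this gene differed most between WT cultures and sorted cells. Each runs from 250 bases before to 50 after the start on the plus strand. Capitals mark E-boxes (CANNTG, the motif that E proteins bind when not held by an ID protein) and matches to the NF-kB consensus.
Tnfrsf9, chr4:150919905-150920204: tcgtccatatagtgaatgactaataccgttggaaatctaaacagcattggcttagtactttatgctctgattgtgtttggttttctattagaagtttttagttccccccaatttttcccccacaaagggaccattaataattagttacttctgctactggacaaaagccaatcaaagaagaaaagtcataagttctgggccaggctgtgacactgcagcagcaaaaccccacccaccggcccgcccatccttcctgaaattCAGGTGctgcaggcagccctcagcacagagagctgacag
Tnfrsf9, chr4:150927749-150928048: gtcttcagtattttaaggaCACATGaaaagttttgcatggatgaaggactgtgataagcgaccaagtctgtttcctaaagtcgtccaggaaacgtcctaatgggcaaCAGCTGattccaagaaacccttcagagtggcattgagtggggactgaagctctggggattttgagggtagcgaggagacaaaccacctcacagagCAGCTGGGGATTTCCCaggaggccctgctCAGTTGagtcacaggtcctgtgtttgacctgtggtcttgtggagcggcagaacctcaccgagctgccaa
The upstream window held 1 E-box, CAGGTG, and no NF-kB match. The downstream window held 4 E-boxes, of which 2 read CAGCTG, and 2 NF-kB matches on overlapping bases, GGGGATTTCC and GGGATTTCCC, which begin 43 and 42 bases before the start. The capitals CAGCTGGGGATTTCCC in that window therefore hold an E-box that abuts and shares a base with the NF-kB matches. Searched on both strands, CANNTG was found in 72.3% of 32851 RefSeq promoters of 300 bases, CAGCTG in 16.3%, CACCTG or CAGGTG in 20.2% and the NF-kB consensus in 4.51%. Among the 8 windows of the 7 described genes with an entry, only this one held the NF-kB consensus, and the Tnfrsf1a window alone held no E-box. Which start was used cannot be read from counts per gene, and a match is not evidence of binding.

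Tnfrsf18 and Tnfrsf4, which encode the costimulatory receptors GITR and OX40, are neighbours on chromosome 4, at positions 156026322 to 156028894 and 156013595 to 156016613. In WT replicates 1 to 3 Tnfrsf18 had 81.0, 106.3 and 98.7 CPM, and in Id2-null replicates 119.3, 123.1 and 112.5 CPM. Every Id2-null value was above every WT value, which was so in 1 direction or the other for 20.4% of all genes tested. The difference was less than the test needs. The means were 95.3 ± 13.0 and 118 ± 5.38 CPM (SD, n = 3 each), with a log2 fold change of 0.32 (95% interval 0.02 to 0.61, edgeR adjusted p = 0.31). The antisense gene Gm16008 overlaps Tnfrsf18, and 18.7% of the 50-base stretches of Tnfrsf18 transcripts also occur in it. As the strand setting of the counting is not known, reads of the pair cannot be told apart, though Gm16008 had at most 6 counts in any library. Tnfrsf4 had 11, 12 and 16 counts in WT and 17, 26 and 15 in Id2-null replicates 1 to 3. Its level of 2.62 ± 0.409 against 4.10 ± 1.26 CPM (SD, n = 3 each) did not pass the test, and the 95% interval of the log2 fold change ran from -0.18 to 1.46 (edgeR adjusted p = 0.49). Both genes are also known from regulatory T cells. The 5 regulatory T cell markers summed to 36.9 to 118 CPM in Id2-null and 23.7 to 73.8 CPM in WT cultures, ranges that overlap. Foxp3 and Cd4 of that list had 0 counts in all 6 cultures. Ctla4 stood at 14.9 ± 12.5 CPM in WT and 65.6 ± 38.6 CPM in Id2-null cultures (SD, n = 3 each, edgeR adjusted p = 0.386), and Ikzf2 at 28.5 ± 14.0 and 14.5 ± 2.94 CPM (edgeR adjusted p = 0.238). Ikzf4 was at most 3.54 CPM in any culture. Their part in the values of Tnfrsf18 and Tnfrsf4 was not tested.

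Tnfrsf14 encodes HVEM, a receptor that binds LIGHT and also the immunoglobulin family receptors BTLA and CD160. It lies on chromosome 4 at positions 154918487 to 154928620. Its level was 14.99, 27.7 and 17.5 CPM in WT and 23.8, 22.0 and 17.8 CPM in Id2-null replicates 1 to 3. WT replicate 2 was the highest of the 6 and the genotypes overlapped, at 20.1 ± 6.71 against 21.2 ± 3.09 CPM (SD, n = 3 each). The log2 fold change of 0.08 had a 95% interval of -0.49 to 0.65 (edgeR adjusted p = 0.928) and its sign turned when Id2-null replicate 1 or WT replicate 1 or 3 was left out. Of its partners outside the TNF family, Btla had 0 counts in all cultures, and Cd160 stood at 209 ± 28.3 CPM in WT and 258 ± 15.8 CPM in Id2-null cultures (SD, n = 3 each, edgeR adjusted p = 0.332).

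Tnfrsf26 rose in Id2-null cultures. It encodes a receptor whose ligand is not established and lies on chromosome 7 at positions 143607685 to 143627845, next to its relatives Tnfrsf22 and Tnfrsf23, which encode decoy receptors for the ligand TRAIL. Tnfrsf26 had 163, 192 and 194 counts in WT and 406, 357 and 325 counts in Id2-null replicates 1 to 3. These are 33.9, 39.9 and 37.3 CPM against 89.4, 75.5 and 66.3 CPM. The lowest Id2-null value was well above the highest WT value. Mean levels were 37.1 ± 3.01 and 77.1 ± 11.6 CPM (SD, n = 3 each). The log2 fold change was 1.06 (SE 0.15, 95% interval 0.72 to 1.39, edgeR adjusted p = 0.00674). The call held in 5 of the 6 fits that left out 1 culture and was lost without WT replicate 1 (log2 fold change 0.99, edgeR adjusted p = 0.0589). The neighbours did not pass. Tnfrsf22 stood at 3.12, 2.70 and 0.192 CPM in WT and 7.71, 6.34 and 3.67 CPM in Id2-null cultures (log2 fold change 1.56, edgeR adjusted p = 0.332). Tnfrsf23 stood at 11.9, 13.1 and 6.16 CPM in WT and 24.7, 17.5 and 8.16 CPM in Id2-null cultures (log2 fold change 0.70, edgeR adjusted p = 0.555). Both were lowest in replicate 3 of their genotype, and their levels are uncertain because they share 17.3% and 18.0% of their 50-base stretches with each other. Tnfrsf26 shared 1.89% of its stretches, with the antisense gene E230032D23Rik alone.

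Tnfsf14 and Cd70, the ligands of HVEM and of CD27, lie close together on chromosome 17, at positions 57189474 to 57194181 and 57145997 to 57149777. Tnfsf14 stood at 16.03, 19.3 and 23.3 CPM in WT and 20.7, 19.7 and 32.9 CPM in Id2-null replicates 1 to 3. Replicate 3 was the highest of each genotype and the genotypes overlapped. The means were 19.6 ± 3.63 and 24.4 ± 7.34 CPM (SD, n = 3 each), with a log2 fold change of 0.32 (95% interval -0.24 to 0.88, edgeR adjusted p = 0.632). Cd70 had 0, 0 and 2 counts in WT, 1, 0 and 0 in Id2-null and 0 in each sorted library, so no fold was computed. The receptor of CD70 was abundant by comparison. Cd27 encodes a costimulatory receptor whose level is known to drop as NK cells mature. It rose in Id2-null cultures, with 44.8 ± 5.58 CPM in WT and 182 ± 12.6 CPM without ID2 (SD, n = 3 each, log2 fold change 2.03, edgeR adjusted p = 0.000197).

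**Figure D2:**
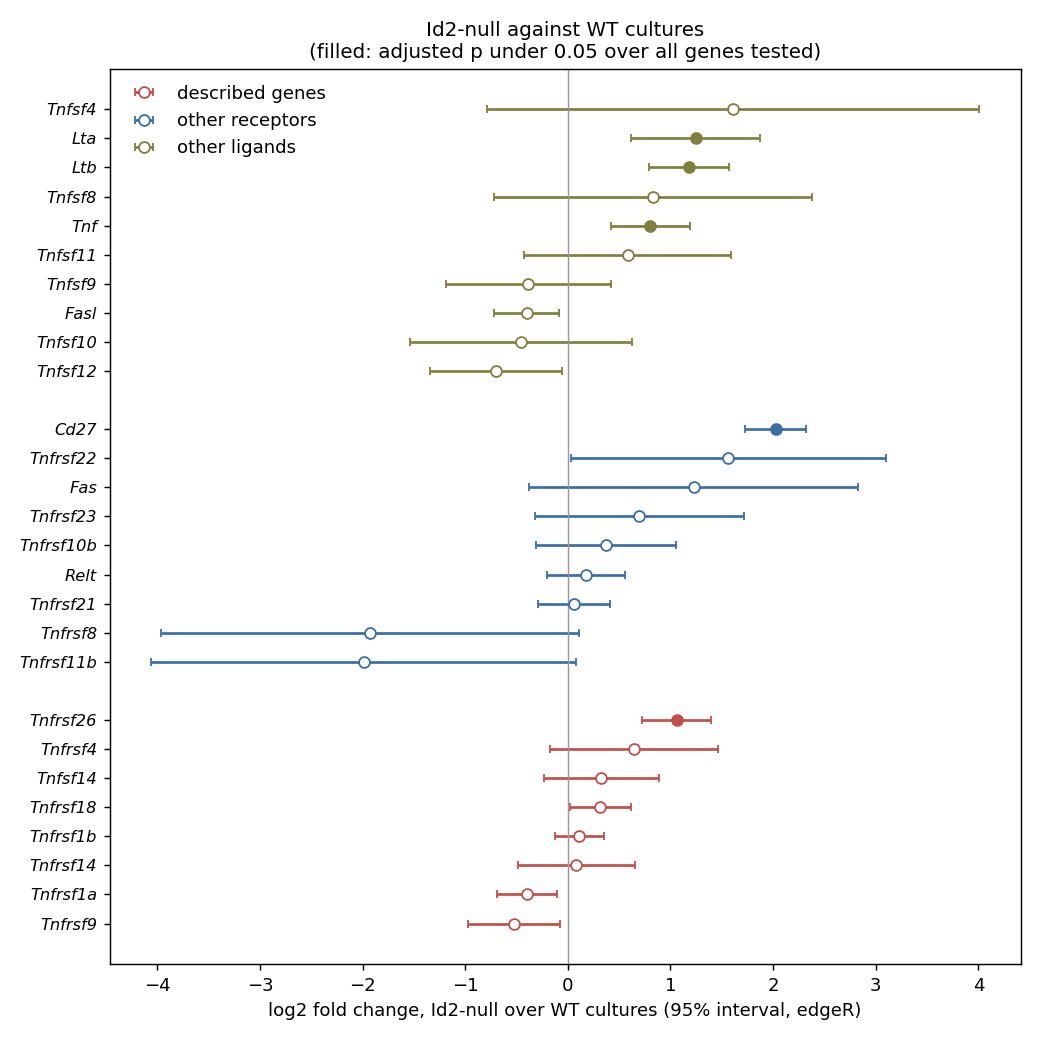
Log2 fold change of Id2-null over WT cultures (x axis) with its 95% interval for each tested described gene, other TNF receptor and other TNF ligand (y axis). Filled points passed at an adjusted p under 0.05 over all genes tested: Tnfrsf26 among the described genes, Cd27 among the other receptors and Tnf, Lta and Ltb among the ligands.

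Among the rest of the family and pathway, 6 of 61 tested genes were called, all higher in Id2-null cultures, where 1.91% of all genes were called higher. Of 9 tested genes in a list of 21 other TNF receptors, Cd27 alone was called. Tnfrsf11b, which encodes osteoprotegerin, a soluble decoy receptor, stood at 14.8, 16.02 and 28.3 CPM in WT and 1.10, 1.69 and 11.8 CPM in Id2-null replicates 1 to 3. Every Id2-null value was below every WT value, which was so in 1 direction or the other for 20.4% of all genes tested. The gene did not pass (log2 fold change -1.99, edgeR adjusted p = 0.361). Tnfrsf11b was called lower without Id2-null replicate 3 (log2 fold change -3.79, edgeR adjusted p = 0.000526, with 5.90% of genes called). The same was so without both cultures numbered 3 (-3.43, edgeR adjusted p = 7.67e-08, with 9.62% called), libraries that these counts had set apart. Of 10 tested in a list of 16 other ligands, Tnf, Lta and Ltb were called higher and 0 lower. These 3 ligand genes are neighbours on chromosome 17. Tnf, which encodes the ligand of TNFR1 and TNFR2, rose from 26.1 ± 1.77 to 45.5 ± 8.06 CPM (SD, n = 3 each, log2 fold change 0.80, edgeR adjusted p = 0.0386). Lta, which encodes lymphotoxin alpha, rose from 7.44 ± 2.21 to 17.6 ± 3.56 CPM (log2 fold change 1.25, edgeR adjusted p = 0.0479). Ltb, which encodes lymphotoxin beta, rose from 137 ± 23.8 to 310 ± 48.8 CPM (log2 fold change 1.18, edgeR adjusted p = 0.00825). The Ltb call held in each of the 6 fits that left out 1 culture. The Tnf call was lost without Id2-null replicate 1 or any WT replicate, and the Lta call without any culture but Id2-null replicate 3, with edgeR adjusted p of up to 0.199 and 0.192. Scaling by library size alone and limma voom also lost both calls, with adjusted p of 0.0534 and 0.0625 for Tnf and 0.0608 and 0.0641 for Lta. Ltbr, the receptor of lymphotoxin, had 6, 6 and 3 counts in WT and 1, 0 and 0 in Id2-null cultures and was not tested. Median log2 fold changes were 0.69 over the tested ligands and 0.37 over the other receptors, against 0.01 over all genes tested.

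The ligands of the costimulatory receptors were not called. Tnfsf4, which encodes the ligand of OX40, stood at 12.3, 11.02 and 29.6 CPM in WT and 19.6, 20.3 and 121.6 CPM in Id2-null replicates 1 to 3 (edgeR adjusted p = 0.545). Replicate 3 was the highest of both genotypes, and without both cultures numbered 3 the gene was called higher (log2 fold change 0.78, edgeR adjusted p = 0.0271). In that fit 9.62% of all genes were called. Tnfsf9, which encodes the ligand of 4-1BB, was lowest in replicate 3 of both genotypes, and its means were 16.2 ± 6.61 and 12.4 ± 3.44 CPM (SD, n = 3 each, edgeR adjusted p = 0.704). Tnfsf18, which encodes the ligand of GITR, had 0 counts in every culture. With the replicate block Tnfsf8, which encodes the ligand of CD30, was also called higher (edgeR adjusted p = 0.00205) and Tnfsf10, which encodes TRAIL, lower (edgeR adjusted p = 0.0273).

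Downstream of the receptors 2 genes were called. Of 28 tested adaptors and regulators in a list of 29, Traf4 and Tnfaip8 rose, and the list's median log2 fold change was 0.01. With 1.91% of all genes called higher, this count is not read as a result about the list. Traf4, a member of the TRAF family, went from 29.2 ± 1.06 to 57.1 ± 3.06 CPM (SD, n = 3 each, log2 fold change 0.97, edgeR adjusted p = 0.00417). Tnfaip8, a gene named for its induction by TNF, went from 74.9 ± 4.25 to 125 ± 17.5 CPM (log2 fold change 0.74, edgeR adjusted p = 0.0193), and its call was lost without any 1 culture but Id2-null replicate 3 (edgeR adjusted p up to 0.105). Of 14 NF-kB subunits and inhibitors 0 were called by edgeR, with 2 at an unadjusted p under 0.05, where 14.6% of all genes were. Nfkbie, an inhibitor of NF-kB, was the 1 gene of that list called with the replicate block (edgeR adjusted p = 0.0245). The most abundant of the list, Nfkb1 and Rela, had log2 fold changes of 0.32 and -0.06 (edgeR adjusted p = 0.33 and 0.857).

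Per gene length the order of the 9 genes was the same at both ends in WT and Id2-null cultures. CPM per kilobase (RPKM) put Tnfrsf9 first, at 522 ± 82.1 in WT and 361 ± 88.5 in Id2-null cultures (SD, n = 3 each). Tnfrsf18 followed at 94.7 and 117, Tnfrsf1b at 59.5 and 64.1 and Tnfrsf1a at 39.4 and 29.8 RPKM. In WT cultures Tnfrsf14, Tnfrsf26 and Tnfsf14 came next at 22.5, 12.5 and 10.5 RPKM, and the ranges of Tnfrsf26 and Tnfsf14 overlapped. In Id2-null cultures Tnfrsf26 stood above Tnfrsf14, at 25.9 and 23.7 RPKM, and its range overlapped those of both Tnfrsf1a and Tnfrsf14. Tnfrsf4 was at 2.27 and 3.55 RPKM and Cd70 was last. Tnfrsf9 alone made up 65.7 to 71.1% of the summed RPKM of the 7 receptors in WT cultures and 52.2 to 64.8% in Id2-null cultures. In the sorted cells it made up 15.8 to 19.2%, and the first place went to Tnfrsf18 in Immature and M1 and to Tnfrsf1b in M2 cells.

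**Figure D3:**
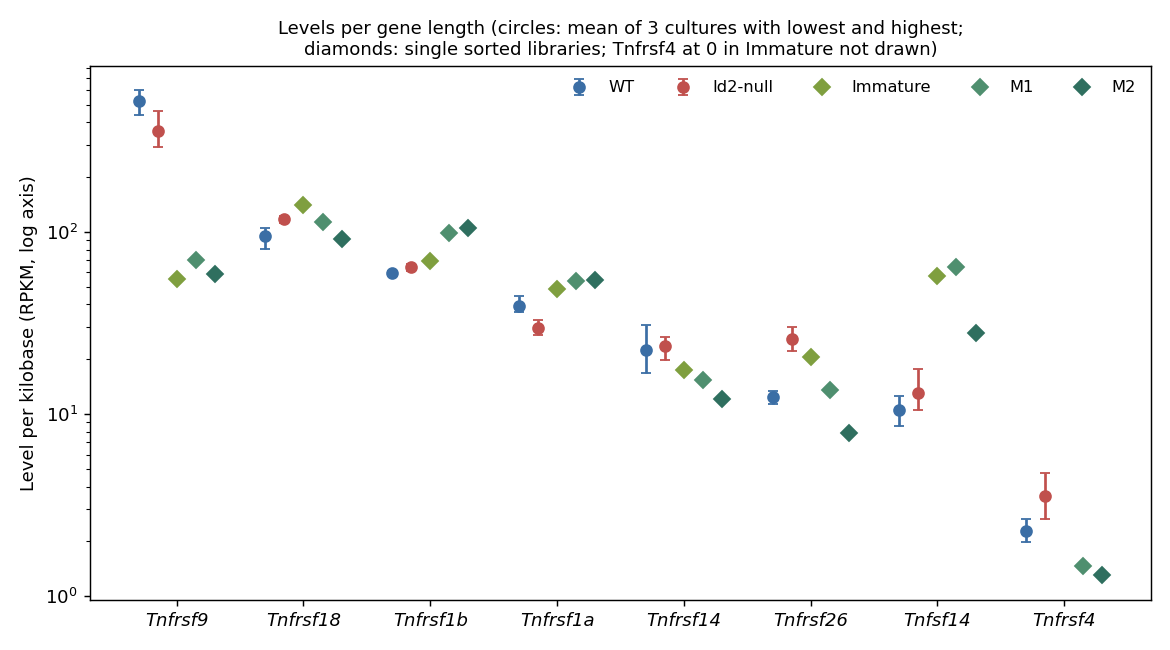
Level per kilobase of gene length (y axis, RPKM on a log axis) of 8 of the genes (x axis) in each group. Circles are means of 3 cultures with bars from the lowest to the highest, and diamonds are single sorted libraries. Tnfrsf9 leads in both sets of cultures at 522 and 361 RPKM and lies at 55.5 to 70.6 RPKM in sorted cells.

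The sorted populations were compared by size of change, since each is 1 library and no test was possible. Of the 9 genes 7 had at least 20 counts in 1 of the libraries compared. From Immature to M2, 2 of these 7 lay past 2-fold, both lower, where 5.67% of all genes with that count were over 2-fold lower and 6.59% over 2-fold higher. From Immature to M1 none of the 7 passed 2-fold (1.91% of all genes were higher and 4.31% lower), and from M1 to M2 Tnfsf14 alone did, lower (4.36% higher and 1.64% lower). Tnfrsf26 had 240, 167 and 93 counts in Immature, M1 and M2, which are 61.1, 40.3 and 23.3 CPM. It was lower at each step, with a ratio of M2 to Immature of 0.381 (exact 95% interval 0.297 to 0.486). Its 3 values in Id2-null cultures lay above that of Immature cells, and its 3 WT culture values lay between those of M1 and M2, with no test of either. Tnfsf14 stood at 106.0, 118.9 and 52.1 CPM, and the difference lay between M1 and M2, with a ratio of 0.439 (exact 95% interval 0.371 to 0.517). Its ratio of M2 to Immature was 0.492, and the exact 95% interval of 0.415 to 0.582 spanned the 2-fold line. Tnfrsf18 was lower at each step within 2-fold, at 141.6, 114.1 and 92.0 CPM (ratio of M2 to Immature 0.649, exact 95% interval 0.568 to 0.742).

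TNFR2 went the other way in the sorted cells. Tnfrsf1b stood at 342.6, 488.1 and 515.1 CPM in Immature, M1 and M2, with a ratio of M2 to Immature of 1.503 (exact 95% interval 1.40 to 1.61), most of it between Immature and M1. Tnfrsf1a stood at 104.4, 116.0 and 118.1 CPM, and the interval of its ratio held 1 (0.988 to 1.29). Tnfrsf9 was highest in M1, at 123.3, 156.7 and 130.6 CPM, and its M2 to Immature ratio of 1.06 had an interval of 0.934 to 1.20. Tnfrsf14 stood at 15.5, 13.7 and 10.8 CPM, where the ratio of 0.694 had an interval of 0.458 to 1.04. Tnfrsf4 had 0, 7 and 6 counts, and the 0 in Immature cells allows up to 0.764 CPM.

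Markers of other cells moved with the sorted populations. The 8 myeloid marker genes summed to 1152, 1339 and 1756 CPM in Immature, M1 and M2, and none was at 0, although Itgax in that list is also expressed by NK cells. Lyz2, which encodes lysozyme of myeloid cells, stood at 56.8, 60.0 and 231.4 CPM and was at 0 in all cultures. The 10 T cell markers summed to 1047, 355.9 and 422.6 CPM and the 6 B cell markers to 520.5, 395.0 and 596.1 CPM. As myeloid and T cells also express TNF receptors, these values stand beside the ratios above, and their part in them was not tested.

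Among the family's other genes the ligands differed most between sorted populations. Of 7 other ligands with enough counts, 5 were over 2-fold lower in M2 than in Immature cells (5.67% of all genes) and 2 over 2-fold higher (6.59% of all genes). The 5 were Tnf, Lta, Ltb, Tnfsf8 and Tnfsf10, and the 2 were Fasl, which encodes the death ligand of FAS, and Tnfsf12, which encodes TWEAK. Ltb went from 455.2 to 165.4 and 56.6 CPM and Tnf from 66.2 to 38.8 and 11.3 CPM in Immature, M1 and M2. Of 7 other receptors, Cd27, Tnfrsf13c and Tnfrsf23 were over 2-fold lower in M2, and 0 were higher. The intervals of Tnfrsf13c (0.261 to 0.816) and Tnfrsf23 (0.170 to 0.960) spanned 2-fold, and that of Cd27 did not. Cd27 stood at 190.3, 143.2 and 39.1 CPM. By the same background, of 28 adaptors and regulators 1 was over 2-fold higher and 1, Traf1, lower, and of 14 NF-kB genes 0 in either direction. The intervals of both these adaptor and regulator genes spanned 2-fold.

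**Figure D4:**
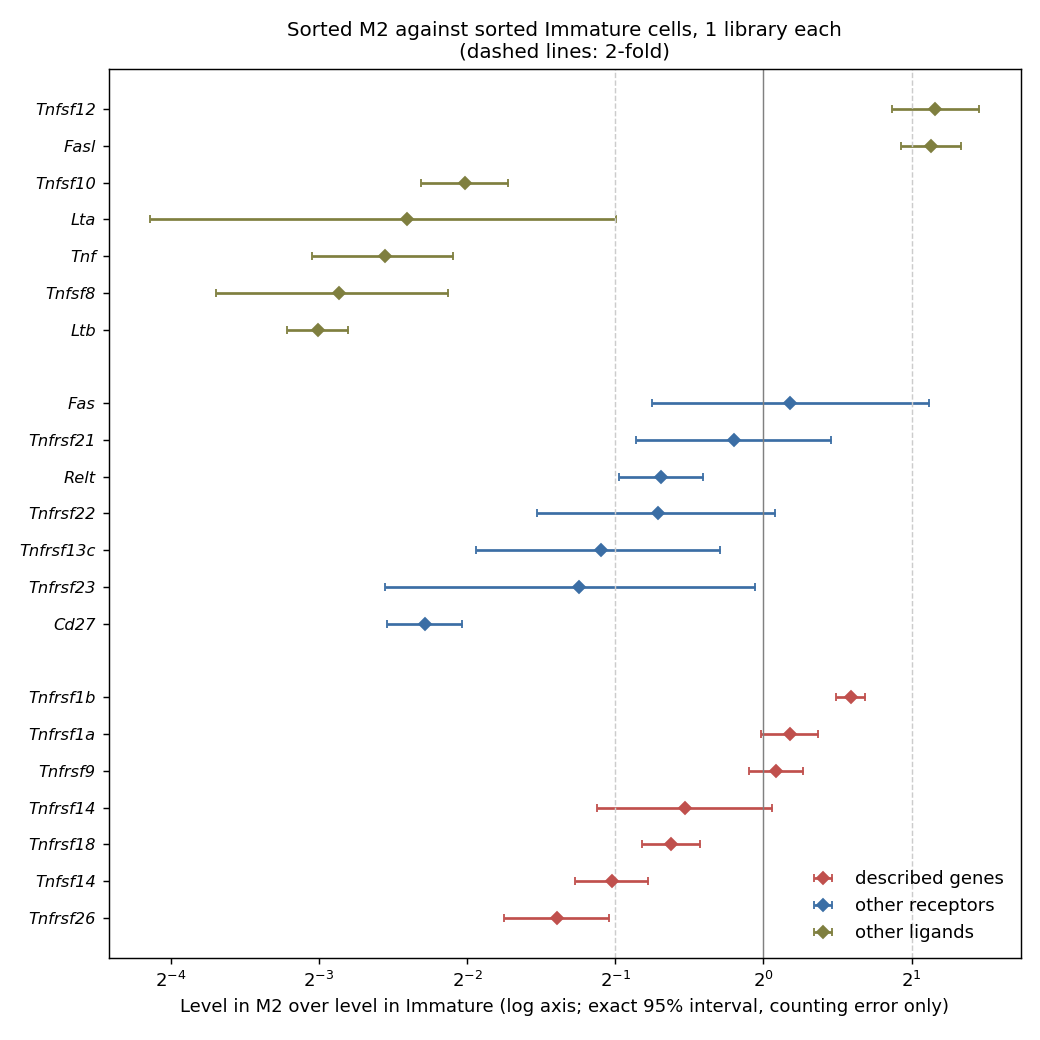
Ratio of the level in M2 to that in Immature cells (x axis, log axis, base 2) with its exact 95% interval for counting error, for described genes, other receptors and other ligands (y axis) with at least 20 counts in 1 of the libraries. Each population is 1 library. Tnfrsf26 (0.381) and Tnfsf14 (0.492) lie below the 2-fold line, Tnfrsf1b (1.503) above 1, and 5 ligands lie far to the left.

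WT cultures and sorted libraries differ in culture, in the cells taken and in sex, so their values are given side by side without a test. Of the 7 genes with enough counts, Tnfrsf9 was over 2-fold higher in the WT cultures and Tnfsf14 over 2-fold lower, with no overlap of the 3 cultures with the 3 sorted libraries. Over all genes 16.2% were higher and 15.4% lower by the same rule. NK markers moved too. The 9 of them summed to 6624 to 7793 CPM in WT cultures and 13376 to 19366 CPM in sorted cells, and 6 of the 9 were over 2-fold higher in sorted cells with no overlap: Ncr1 (3.79-fold), Klrb1c (3.89-fold), Tbx21 (4.34-fold), Itga2 (10.1-fold), Klrk1 (3.76-fold) and Nkg7 (3.45-fold). Their part in the values below was not tested. Tnfrsf9 went from 123.3 to 156.7 CPM in sorted cells to 972.9 to 1337.7 CPM in WT cultures, and the lowest Id2-null culture was at 649.3 CPM. Tnfsf14 lay at 52.1 to 118.9 CPM in sorted cells and at 16.03 to 23.3 CPM in WT cultures, a mean 4.72-fold higher in sorted cells. Its promoter is printed as well, on the minus strand of GRCm38.p6, with E-boxes in capitals. It had no NF-kB match, which only 4.51% of RefSeq promoters had, and a link of motifs to levels was not tested.
Tnfsf14, chr17:57194132-57194431: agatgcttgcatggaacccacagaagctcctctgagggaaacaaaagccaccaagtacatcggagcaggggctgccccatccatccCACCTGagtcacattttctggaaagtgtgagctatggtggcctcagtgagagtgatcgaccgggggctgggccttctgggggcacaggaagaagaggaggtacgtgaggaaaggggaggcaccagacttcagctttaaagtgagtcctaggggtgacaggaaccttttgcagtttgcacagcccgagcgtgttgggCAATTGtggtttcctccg
The window held 2 E-boxes, CACCTG and CAATTG. Tnfrsf1a and Tnfrsf1b stayed within 2-fold, with means in sorted libraries at 1.33-fold and 1.54-fold those in WT cultures. Their values did not overlap between the sets. How often this holds over all genes was not counted, so no result is read from it. Tnfrsf14, Tnfrsf18 and Tnfrsf26 overlapped between the 2 sets. Of 10 other receptors with enough counts, 5 were higher in WT cultures by the rule: Tnfrsf8, Tnfrsf10b, Tnfrsf11b, Tnfrsf21 and Tnfrsf23. Fas, Tnfrsf13c and Tnfrsf22 were lower, so a rise by the rule was not particular to Tnfrsf9. Of 10 other ligands with enough counts, Tnfsf4, Tnfsf8, Tnfsf9 and Tnfsf11 were higher in WT cultures by the rule and Tnfsf12 lower. The ligand of 4-1BB, Tnfsf9, stood at 8.85 to 21.7 CPM in WT cultures and 0.965 to 2.80 CPM in sorted cells.

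The genes with the most similar profile were sought by the root mean square difference of centred log2(CPM + 1) over the 9 libraries. For Tnfrsf26 the nearest were Setd4 (0.18) and Mcoln2 (0.24), which stood at 4.34 and 32.8 CPM in WT, 10.9 and 76.9 CPM in Id2-null, and 2.76 and 23.1 CPM in M2 libraries. For Tnfrsf1b they were Irf2 (0.07) and Rab11a (0.08), and for Tnfrsf1a Tmed10-ps and Ssr1 (both 0.09). For Tnfrsf9 the nearest, Insrr and Dyrk3, were farther off, at 0.25 and 0.26. For Tnfsf14 they were Efnb1 (0.21) and Nr4a1 (0.31), for Tnfrsf18 Gstp-ps and Aimp1 (both 0.09), for Tnfrsf14 Phb and Pus1 (both 0.15), and for Tnfrsf4 Hspa1l (0.27) and Farp1 (0.31). These distances describe 9 libraries that share the contrast of culture with sorting, and carry no test.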

How the data were processed

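Each deposited table lists, per the file headers, 1 unnormalized count for every Entrez identifier, with the length of the gene. The submitters' processing notes name Subread, featureCounts and limma and the builds GRCm38 and mm10. The sources used here do not give versions, annotation, strand setting or the handling of reads with several matches. RefSeq (GRCm38.p6) gave a symbol for 25275 of 27179 identifiers, and all 128 list genes matched. The genes and lists were chosen with earlier results of these data known.

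The genotypes were tested with edgeR 4.0.16 (R 4.3.3): filterByExpr with a minimum count of 10 (11022 genes kept), TMM scaling, robust dispersion, and a quasi-likelihood test with genotype alone, Benjamini-Hochberg adjusted over all tested genes, with a threshold of 0.05. The biological coefficient of variation was 0.209 in common over genes. On data simulated for this comparison with 10919 genes run, 56.7% of changes by 1 and 95.3% of changes by 2 on the log2 scale were recovered. Another 12 genes were called falsely. The simulated counts held no shift shared by same-numbered cultures, so recovery in the measured data may differ. Deviations from genotype means correlated at 0.352, 0.241 and 0.417 between same-numbered cultures 1, 2 and 3. Between cultures of unlike number they ran from -0.397 to 0.189. Cultures 1 and 2 were set apart weakly, as their crossed pairs correlated at 0.189 and 0.136. The labels do not state a pairing, and a fit with the replicate block was run as an alternative. That block was chosen from the same counts that it tests, so its calls are not independent of the choice. The same holds for leaving out the cultures numbered 3, which these counts set apart. Alternatives used DESeq2 1.42.0, limma 3.58.1 voom, other scalings and filters, all 9 libraries, and fits without cultures. Sorted libraries were compared by a 2-fold rule with at least 20 counts and exact binomial intervals. Shared stretches were counted in GENCODE transcripts with a length of 50 bases. The named genes were the 9 genes, their partners, and up to 3 called genes each way per pathway list, or the 2 most abundant where none was called. Tnfsf8, Tnfsf10, Nfkbie, Tnfrsf11b, Tnfrsf22, Tnfrsf23, Lyz2, Gm16008 and the marker genes were named after their values were seen. So were the genes listed for the sorted libraries and for the WT cultures beside them. RefSeq held no promoter entry for Tnfrsf26 and Cd70, which have none printed.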

Additional observations from a re-analysis of the deposited data

How the results depend on the processing

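Over all genes the count of calls was 377, 580 with DESeq2, 835 with the replicate block and 1065 without both cultures numbered 3, and leaving out 1 culture gave 121 to 662. Of the 9 genes 1 was called, 0 to 2 when 1 culture was left out, and 2 without both cultures numbered 3. The second was Tnfrsf9, called without Id2-null replicate 3, and the count was 0 without WT replicate 1. Scaling, filters, DESeq2, limma voom, all 9 libraries and the replicate block each left the count at 1. Of 61 tested pathway genes 6 were called, 3 to 7 when 1 culture was left out, 9 with the replicate block and 14 without both cultures numbered 3. Fewer were called with library size only (4), limma voom (4), all 9 libraries (5) and the filter of 10 CPM (5). Tnf and Lta lost their calls under the first pair, and Lta also with all 9 libraries (adjusted p = 0.0568) and the filter (0.053). The log2 fold change of Tnfrsf14 ran from -0.095 to 0.38 when 1 culture was left out, and turned to -0.0045 without Id2-null replicate 1, to -0.095 without WT replicate 1 and to -0.0092 without WT replicate 3. The cause of these shifts was not tested. Tnfrsf26 kept a log2 fold change of 0.94 to 1.16 over its 15 alternatives and was called in 14. With the replicate block no described gene changed its call. Among the pathway genes the block added Tnfsf8, Tnfsf10 and Nfkbie. The 2-fold counts of the sorted and culture comparisons stayed at 2 genes each under the other scalings, and the second also without each WT culture. Counts were lowest for Tnfrsf4 and Cd70, with at most 26 and 2 a library. Tnfrsf4 has no value under the filter of 10 CPM in 3 cultures.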
